A study of Homo sapiens with 24 samples.

Results

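MAPK feedback and output genes are genes whose transcription follows the activity of ERK, the last kinase of the RAS–RAF–MEK–ERK cascade. The 10 genes described here, DUSP4, DUSP5, DUSP6, SPRY1, SPRY2, SPRY4, SPRED1, SPRED2, ETV4, and ETV5, were found by symbol among the 43037 genes of the expression table. Their levels were measured by CAGE-Seq, a method that sequences a short tag from the capped 5′ end of each transcript, in the glioblastoma lines U87MG, T98G, and U251MG and in DBTRG-05MG, another established line of this tumor. All 4 lines received by stable transduction either a lentivirus carrying WWOX, a gene for an oxidoreductase with tumor suppressor properties, or a blank lentivirus, and were selected with puromycin, so that all groups carried a vector and had been under the same selection. The paper describes this step as clonal selection. Whether the replicates of a variant came from separate transductions is not stated. The part of the selection in the differences between variants was not tested. The blank-virus cells are the “Vec” variant and the others the “WWOX” variant, with 3 biological replicates of each per line and 24 libraries in all. The vector for WWOX is named for its CMV promoter. U87MG and U251MG shared a growth medium, and T98G and DBTRG-05MG each had another, so that for the latter line and medium cannot be told apart.

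In growth factor signaling, activated receptors load RAS with GTP, and the signal passes through RAF and MEK to ERK. ERK then induces, among other targets, its own brakes. DUSP4, DUSP5, and DUSP6 are phosphatases that remove the activating phosphates from ERK, of which DUSP4 and DUSP5 act in the nucleus and DUSP6 in the cytoplasm. Sprouty proteins (SPRY1, SPRY2, and SPRY4) and the related SPRED1 and SPRED2 restrain the pathway upstream, at the level of RAS and RAF, and SPRED1 recruits the RAS inactivator neurofibromin to the membrane. ETV4 and ETV5 are ETS transcription factors downstream of the pathway. The transcript levels of such genes are commonly read as an output of ERK, which is frequently active in glioblastoma.

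Levels are given in CPM, the tags of a gene per 1000000 tags of its library. Libraries held 10756072 to 16953689 tags on genes (median 14584829), and 3 tags, taken as the limit that a count of 0 allows, correspond to 0.177 to 0.279 CPM, which covers counting error only. The test covered the 12327 genes that reached 5 CPM in 1 library or more, among them 9 of the 10 members. Differences are on the log2(CPM + 0.5) scale after scaling (log2FC), with the standard error (SE) and the adjusted p of limma over all genes tested, and a gene passed the test when its adjusted p was under 0.05. WWOX itself, the transduced gene, was the check of the labels. All 3 “WWOX” libraries lay above all 3 “Vec” libraries in U87MG (61.0 to 66.0 against 33.9 to 40.1 CPM) and in DBTRG-05MG (28.0 to 32.0 against 20.4 to 22.2 CPM), and the groups overlapped in T98G (45.1 to 61.8 against 34.2 to 57.2 CPM). On scaled values, groups did not overlap, in either direction, for 17.5% of all genes tested in U87MG and 19.7% in DBTRG-05MG. WWOX passed the test in no line (adjusted p = 0.137 in U87MG, 0.553 in T98G, and 0.77 in DBTRG-05MG). In U251MG the libraries labelled “WWOX” held 56.7, 17.4, and 38.0 CPM of WWOX against 31.4, 36.8, and 32.2 CPM in “Vec”, so replicate 2 lay below every control. A transcript that starts within the vector need not be counted at the WWOX gene. The 3 libraries labelled U251MG “WWOX” also stood apart from each other, with a root mean square deviation from their group mean of 0.46 to 0.67 on the log2 scale over the genes tested, against 0.22 to 0.51 in the other 21 libraries. Of the 7 markers of glial and neural stem cells, summed levels ran from 736.6 to 5686 CPM. CD44 made up most of the sum in U87MG, T98G, and DBTRG-05MG, with “Vec” means of 807.5, 1789, and 2880 CPM. NES had “Vec” means of 1.93, 0.185, and 38.9 CPM in these lines. GFAP had a “Vec” mean of 2655 CPM in U251MG and of 1.99 to 4.34 CPM in the other lines. SOX2 in U87MG and S100B in U87MG “WWOX” and T98G “Vec” were at or under 3 tags in every library. The same held for NES in T98G “WWOX” and for OLIG2 in U251MG “Vec” and DBTRG-05MG “WWOX”. The 7 markers of immune, epithelial, and endothelial cells summed to between 0.066 and 13.6 CPM, with PTPRC, CD3E, and PECAM1 at or under 3 tags in every library.

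The Vec variants were compared first, to see where these genes stood in each line without added WWOX. Between the 4 “Vec” groups, 8 of the 9 members tested differed (all except ETV5, adjusted p = 0.701), where 66.9% of all genes tested did. ETV4 was no longer among them without U251MG “Vec” replicate 2 or 3. DBTRG-05MG had the highest mean level of every member tested except SPRED1, which was highest in U87MG, though for ETV5 the order of DBTRG-05MG and U251MG turned with edgeR and DESeq2. U251MG had the lowest mean of DUSP4, SPRED1, and ETV4, U87MG that of SPRY1, and T98G those of DUSP5, SPRY2, SPRY4, SPRED2, and ETV5.

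**Figure D1:**
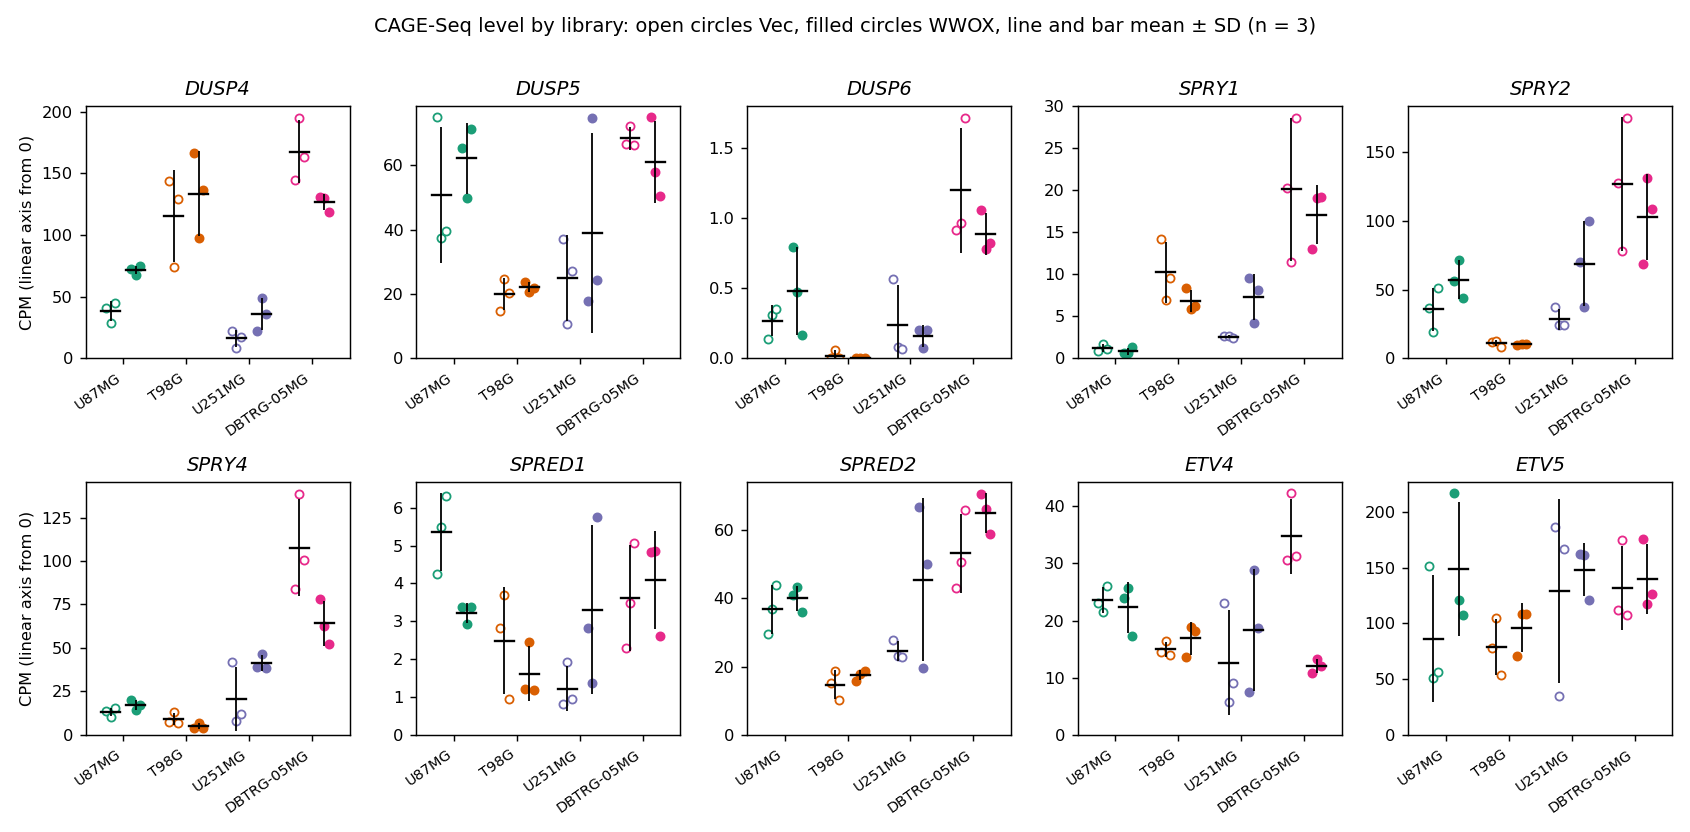
CPM of the 10 members in each of the 24 libraries, with “Vec” as open circles, “WWOX” as filled circles, and the mean ± SD of 3 libraries as line and bar. SPRY4 and SPRY2 stood highest in both variants of DBTRG-05MG, and DUSP6 stayed at or under 1.71 CPM in every library.

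Of the phosphatases, DUSP4 (chr8:29333064-29350684, minus strand, hg38) was the most variable between lines. The “Vec” libraries held 145, 195, and 163 CPM in DBTRG-05MG, 144, 73.7, and 129 in T98G, 40.7, 29.1, and 44.9 in U87MG, and 22.5, 8.59, and 17.5 in U251MG. DBTRG-05MG and T98G did not differ (log2 difference 0.37 ± 0.38, adjusted p = 0.466), while each of the next steps down, T98G to U87MG (1.54 ± 0.38, adjusted p = 0.00227) and U87MG to U251MG (1.46 ± 0.38, adjusted p = 0.00374), did. DUSP5 (chr10:110497907-110511533, plus strand), the nuclear phosphatase specific for ERK, was higher in the “Vec” groups of DBTRG-05MG (68.3 ± 3.46 CPM, SD, n = 3) and U87MG (50.7 ± 21.1) than in those of U251MG (24.9 ± 13.2) and T98G (20.0 ± 5.04). The step from U87MG to U251MG was 1.27 ± 0.49 (adjusted p = 0.0441, but 0.078 with no filter, 0.0633 with edgeR, and 0.0503 to 0.269 without any one of 12 libraries, of which U251MG “Vec” replicate 2 gave the highest), and neither the pair above it nor the pair below it differed.

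DUSP6 (chr12:89347235-89352501, minus strand, with 1 gene on the other strand), the cytoplasmic ERK phosphatase and one of the most used readouts of ERK output, was low in every group. Its highest value was 1.71 CPM and its median 0.204 CPM, so it did not pass the filter and has no test among the 12327 genes. In DBTRG-05MG “Vec” it held 0.917, 0.966, and 1.71 CPM, and in T98G it held 0, 0.0627, and 0 CPM in “Vec” and 0 in all 3 “WWOX” libraries. With every gene kept, U87MG, T98G, and U251MG “Vec” lay 1.01, 1.60, and 1.17 log2 units below DBTRG-05MG “Vec” (SE 0.22 each, adjusted p = 0.00139, 1.06e-05, and 0.000538 by limma), which depends on the added 0.5 CPM at these low levels. In this table DUSP4 and DUSP5 were thus above 8 CPM in all 24 libraries and DUSP6 below 2 CPM in all 24. For the 652 genes tested on chromosome 12 the median, relative to all genes, was 0.38 log2 units higher in DBTRG-05MG “Vec” than in the other lines. It was 0.47 lower in U251MG “Vec”, and the part of this in the DUSP6 levels was not tested.

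The Sprouty genes also differed widely between the lines. SPRY4 (chr5:142310427-142326455, minus strand, with 3 genes including SPRY4-AS1 on the other strand) held 83.9, 138.5, and 100.4 CPM in DBTRG-05MG “Vec” against 41.8, 7.96, and 12.1 in U251MG, 13.5, 10.3, and 15.3 in U87MG, and 7.03, 12.8, and 6.54 in T98G. DBTRG-05MG lay above the next line by 2.63 ± 0.42 (adjusted p = 3.43e-05), and the 3 other lines did not differ between neighbours in this order. SPRY2 (chr13:80335976-80341126, minus strand), an inhibitor of receptor tyrosine kinase signaling, held 127, 77.9, and 174 CPM in DBTRG-05MG, 36.5, 19.3, and 50.8 in U87MG, 37.4, 24.0, and 24.4 in U251MG, and 12.02, 12.7, and 8.41 in T98G. DBTRG-05MG was above U87MG by 1.63 ± 0.33 (adjusted p = 0.000296), and U251MG above T98G by 1.17 ± 0.33 (adjusted p = 0.00792, and 0.055 without U251MG “Vec” replicate 1). SPRY1 (chr4:123396795-123403760, plus strand) had another order, with 20.2, 11.5, and 28.6 CPM in DBTRG-05MG, 14.2, 7.02, and 9.57 in T98G, 2.68, 2.71, and 2.41 in U251MG, and 0.923, 1.78, and 1.12 in U87MG. Here T98G was near DBTRG-05MG (difference 0.69 ± 0.33, adjusted p = 0.095, and 0.0442 with CPM as deposited) and above U251MG by 1.89 ± 0.33 (adjusted p = 8.22e-05), the reverse of their order for SPRY2. The 459 genes tested on chromosome 4 had a median that was 0.45 log2 units higher in DBTRG-05MG “Vec” and 0.50 lower in T98G “Vec” than in the other lines, relative to all genes, and the part of this in the SPRY1 levels was not tested.

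The SPRED genes varied less. SPRED2 (chr2:65310851-65432637, minus strand) had means of 53.2 ± 11.6 CPM in DBTRG-05MG “Vec”, 36.8 ± 7.22 in U87MG, 24.6 ± 2.89 in U251MG, and 14.7 ± 4.30 in T98G (SD, n = 3). Only the step from U87MG to U251MG differed between neighbours (0.73 ± 0.24, adjusted p = 0.0212, but 0.177 with CPM as deposited and 0.0515 to 0.0809 without replicate 2 or 3 of either “Vec” group). SPRED1 (chr15:38252836-38357249, plus strand) was low throughout, at 0.811 to 6.31 CPM, and no neighbours in its order differed, although U87MG “Vec” (5.35 ± 1.03 CPM) lay above U251MG “Vec” (1.22 ± 0.601 CPM) by 1.95 ± 0.36 (adjusted p = 0.000154).

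Of the ETS factors, ETV4 (chr17:43527844-43579620, minus strand, overlapping DHX8 on the other strand) held 30.6, 42.3, and 31.4 CPM in DBTRG-05MG “Vec”, 23.1, 21.6, and 26.0 in U87MG, 14.5, 16.5, and 14.01 in T98G, and 23.1, 5.81, and 8.97 in U251MG. No neighbours in this order differed, and the ends did, with DBTRG-05MG above U251MG by 1.58 (SE 0.44, adjusted p = 0.00856, and 0.0695 without U251MG “Vec” replicate 2). For the 736 genes tested on chromosome 17 the median, relative to all genes, was 0.37 log2 units higher in U251MG “Vec” than in the other lines. It was 0.20 lower in DBTRG-05MG “Vec”, and the part of this in the ETV4 levels was not tested. ETV5 (chr3:186046314-186110318, minus strand) was at 34.7 to 217.6 CPM over all libraries. With all libraries kept, it was the one member tested without a difference between the “Vec” groups. Its 3 replicates differed up to several fold, as in U251MG “Vec” with 187, 34.7, and 167 CPM. The residual SD of ETV5 was 0.69 on the log2 scale and that of DUSP5 0.66, above those of 93.0% and 91.8% of the genes tested. Whether the counting used strand is not given in the sources used here. Tags of the genes that overlap DUSP6, SPRY4, SPRED2, ETV4, and ETV5 may therefore be included in their values, or shared tags left out.

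Counted by pairs of lines, DBTRG-05MG “Vec” exceeded U251MG “Vec” for 8 of the 9 members (17.0% of all genes tested were higher in DBTRG-05MG, and 31.6% differed in either direction). This count was 6 to 8 with a library left out. DUSP5 and ETV4 did not pass without U251MG “Vec” replicate 2 (adjusted p = 0.136 and 0.0695), DUSP5 without DBTRG-05MG “Vec” replicate 2 (0.0558), and SPRED1 without U251MG “Vec” replicate 1 or 3 or DBTRG-05MG “Vec” replicate 3 (0.0531 to 0.0748). DBTRG-05MG “Vec” exceeded U87MG “Vec” for 4, DUSP4 and the 3 Sprouty genes (24.2% higher and 44.1% different among all genes), and T98G “Vec” for 4, DUSP5, SPRY2, SPRY4, and SPRED2 (21.5% and 41.2%). In the latter, DUSP5 did not pass without T98G “Vec” replicate 1 (adjusted p = 0.0605), and with CPM as deposited SPRY1 (0.0442) and ETV4 (0.0235) passed too, 6 of 9. U87MG “Vec” exceeded U251MG “Vec” for 5, DUSP4, DUSP5, SPRED1, SPRED2, and ETV4 (17.8% and 38.6%). This count was 3 with edgeR, with no filter, or without U87MG “Vec” replicate 1 or 3. It was 2 without replicate 2 of either “Vec” group or without U251MG “Vec” replicate 3. Without U251MG “Vec” replicate 2, ETV5 passed in the other direction, lower in U87MG (log2FC −1.08, adjusted p = 0.047). The other pairs were mixed. U87MG “Vec” was above T98G “Vec” for DUSP5, SPRY2, SPRED1, and SPRED2 and below it for DUSP4 and SPRY1 (6 of 9, with 39.8% of all genes). With a library left out this count was 4 to 6. DUSP5 did not pass with no filter (adjusted p = 0.0705) or without U87MG “Vec” replicate 1 or any one of the T98G “Vec” libraries (0.0535 to 0.162), nor SPRED1 without U87MG or T98G “Vec” replicate 3 (0.0572 and 0.118). T98G “Vec” was above U251MG “Vec” for DUSP4 and SPRY1 and below it for SPRY2 (3 of 9, with 32.4%). With DESeq2 the count was 6 of 9, where 4356 of 12327 genes passed. These 6 comparisons share their “Vec” groups and are not independent of each other. For DBTRG-05MG against U87MG, DBTRG-05MG against T98G, and T98G against U251MG, the share of members that differed in limma was near that of all genes.

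Promoter sequence was compared for the members with an entry in the RefSeq table (GRCh38.p14), 6 of 10, with 10 start sites. DUSP4, DUSP5, ETV4, and ETV5 had none. The 250 bases before each start were searched on both strands for the octamer of CIC, the repressor that ERK inactivates (TGAATGAA, TGAATGGA, TCAATGAA, or TCAATGGA), the ETS sequence CCGGAAG (no shorter form), the AP-1 site TGANTCA, the cAMP response element TGACGTCA, and the CArG box of serum response factor. The DUSP6 window held 1 CIC octamer, read on the other strand, 24 bases before the start, and a second SPRY1 start held 1 such ETS sequence 67 bases before it. No other match was found, and 3.18%, 8.52%, 6.57%, 1.65%, and 1.16% of all 35116 windows held the motifs in the order given. The 2 matches lie in different windows and do not overlap. Both windows are shown with the match in capitals, next to 1 window each of SPRY2 and SPRY4, which held no match. Further windows of SPRY1 and SPRY2, also without a match, are not shown. The windows shown are DUSP6 at chr12:89352502-89352751 (minus strand), SPRY1 at chr4:123398136-123398385 (plus strand), SPRY2 at chr13:80341127-80341376 (minus strand), and SPRY4 at chr5:142324248-142324497 (minus strand), each printed 5′ to 3′ along the gene.
DUSP6: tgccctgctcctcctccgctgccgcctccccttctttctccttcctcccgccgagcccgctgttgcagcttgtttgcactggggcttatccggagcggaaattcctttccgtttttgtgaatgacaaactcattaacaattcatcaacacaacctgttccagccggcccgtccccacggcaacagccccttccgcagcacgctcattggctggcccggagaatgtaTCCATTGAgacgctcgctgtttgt
SPRY1: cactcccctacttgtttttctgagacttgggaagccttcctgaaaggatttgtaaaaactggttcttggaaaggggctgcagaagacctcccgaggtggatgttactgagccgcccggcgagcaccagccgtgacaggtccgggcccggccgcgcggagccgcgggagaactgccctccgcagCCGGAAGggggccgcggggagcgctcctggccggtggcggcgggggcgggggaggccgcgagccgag
SPRY2: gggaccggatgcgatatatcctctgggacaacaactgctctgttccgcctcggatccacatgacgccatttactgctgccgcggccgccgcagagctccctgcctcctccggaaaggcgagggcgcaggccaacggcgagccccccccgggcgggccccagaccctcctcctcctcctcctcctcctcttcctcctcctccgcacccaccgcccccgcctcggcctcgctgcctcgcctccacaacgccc
SPRY4: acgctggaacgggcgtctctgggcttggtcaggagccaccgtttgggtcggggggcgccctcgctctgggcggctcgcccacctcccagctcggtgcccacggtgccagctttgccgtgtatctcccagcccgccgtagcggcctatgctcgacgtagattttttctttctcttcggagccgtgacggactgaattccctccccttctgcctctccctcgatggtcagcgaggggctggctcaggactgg
A match is a description of these letters and not evidence of binding.

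The comparison of “WWOX” with “Vec” within each line asked whether the transduced gene moved this pathway’s output. No member passed the test in any line with limma. Of all genes, 3.20% passed in U87MG, 1.14% in T98G, 0.316% in U251MG, and DBTRG-05MG had 1.02%, so 9 genes at the background rate would give few or no calls. At an unadjusted p under 0.05 there were 2 members in U87MG, 6 in U251MG, 1 in DBTRG-05MG, and 0 in T98G, where 11.5%, 11.5%, 7.63%, and 11.5% of all genes were. The edgeR and limma-voom tests on recovered tags passed 0 members in each line, and DESeq2 passed 2 in U251MG and 0 in the other lines. Of the 12327 genes tested, DESeq2 passed 162 in U251MG and limma 39.

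**Figure D2:**
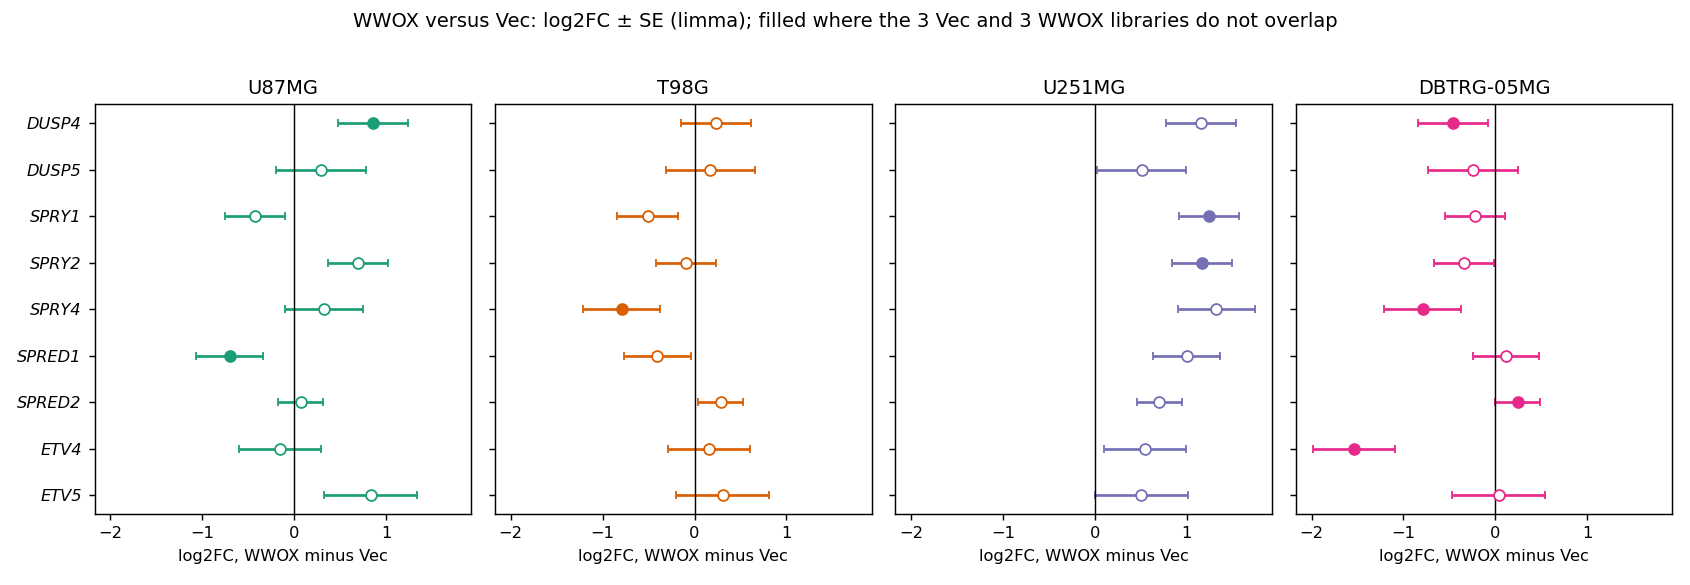
log2FC ± SE (limma) of the 9 members tested, “WWOX” minus “Vec”, in each line, with filled circles where the 3 libraries of one variant do not overlap those of the other. All 9 values lie to the right of 0 in U251MG, from 0.50 to 1.32, and ETV4 in DBTRG-05MG lies farthest to the left, at −1.54.

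In U251MG all 9 members had a positive log2FC, with a median of 1.00, while 49.7% of all genes tested had one and their median was 0.00. SPRY1 held 9.53, 4.22, and 8.12 CPM in the libraries labelled “WWOX” against 2.68, 2.71, and 2.41 in “Vec”, a 2.36-fold difference (log2FC 1.24 ± 0.33, adjusted p = 0.119). SPRY2 held 69.6, 37.3, and 99.4 against 37.4, 24.0, and 24.4 CPM, 2.23-fold (1.16 ± 0.33, adjusted p = 0.147). On the scaled values the groups of these 2 genes did not overlap, as for 10.4% of all genes. SPRY4 held 38.8, 46.6, and 38.3 against 41.8, 7.96, and 12.1 CPM (1.32 ± 0.42, adjusted p = 0.196), so 1 control library was as high as the “WWOX” libraries. DUSP4 held 22.6, 49.0, and 36.2 against 22.5, 8.59, and 17.5 CPM (1.15 ± 0.38, adjusted p = 0.211), and its groups overlapped once scaled. SPRED1 (1.00 ± 0.36, adjusted p = 0.267) and SPRED2 (0.70 ± 0.24, adjusted p = 0.243) had an unadjusted p under 0.05 as well. DUSP5, ETV4, and ETV5 had the smallest values, 0.51, 0.55, and 0.50, each close to its SE of 0.49, 0.44, and 0.51.

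The U251MG values depended on single libraries. Without “Vec” replicate 1 SPRY4 passed the test (log2FC 2.02, adjusted p = 0.0039). Without “WWOX” replicate 2, the library with the lowest WWOX, the genes SPRY1 (1.35, adjusted p = 0.0387), SPRY2 (1.31, adjusted p = 0.0394), and SPRED2 (0.98, adjusted p = 0.0185) passed. With this library left out, DUSP5 and ETV4 turned to −0.32 and −0.09. DUSP5 and ETV5 turned to −0.04 and −0.32 without “Vec” replicate 2. The members fell into patterns within the “WWOX” group: replicate 2 was the highest of the 3 for DUSP4, DUSP5, SPRY4, and ETV4 and the lowest for SPRY1, SPRY2, SPRED1, and SPRED2. DESeq2 passed SPRY1 (1.43, adjusted p = 0.0301) and SPRY2 (1.19, adjusted p = 0.043). CDH5, an endothelial marker, moved in the same direction, with 13.2, 4.43, and 7.17 CPM in “WWOX” against 3.81, 2.71, and 2.01 in “Vec” (1.28 ± 0.23, adjusted p = 0.0132 with limma, and no call with edgeR, limma-voom, or DESeq2). It was the only one of the 7 markers of other cell types above 5 CPM in any library, the summed level of the 7 was 4.58 to 13.6 CPM in “WWOX” against 2.34 to 3.81 in “Vec”, and its part in the values of the members was not tested. Of the 6 glial and neural stem markers tested, 5 had a negative log2FC (median −0.64, none past the test), and the replicates were far apart. GFAP, an astrocyte filament gene, held 114, 2506, and 3226 CPM in “WWOX” against 3115, 2815, and 2035 in “Vec”, and the summed level of the 7 glial and neural stem markers listed was 1585 to 5686 against 3816 to 5261 CPM. Their part was not tested either.

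**Figure D3:**
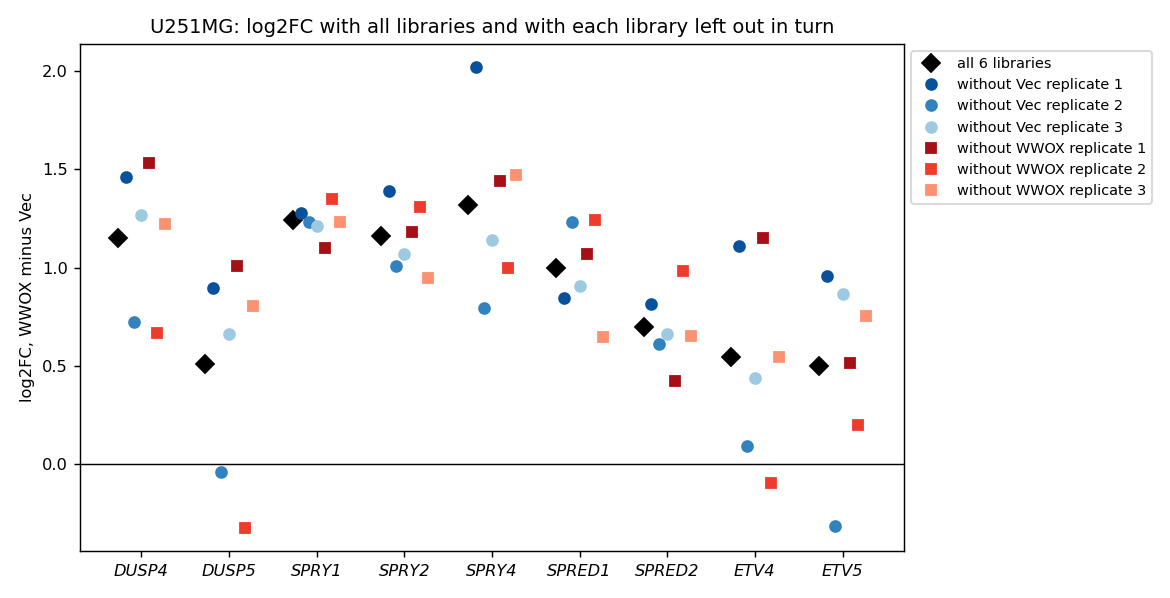
log2FC of the 9 members in U251MG, “WWOX” minus “Vec”, with all 6 libraries (diamonds) and with each “Vec” (circles) or “WWOX” library (squares) left out in turn. SPRY1 stays between 1.10 and 1.35, while SPRY4 spans 0.79 to 2.02 and DUSP5, ETV4, and ETV5 cross 0.

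In DBTRG-05MG, the line with the highest control levels, 6 of the 9 members had a negative log2FC, with a median of −0.24. ETV4 was 10.9, 13.3, and 11.99 CPM in “WWOX” against 30.6, 42.3, and 31.4 in “Vec”, a log2FC of −1.54 ± 0.44 with an adjusted p of 0.139. Its 3 “WWOX” libraries lay close together and below all 3 controls. The adjusted p was 0.0347 and 0.0345 without U251MG “WWOX” replicate 1 or 2, which enter through the shared estimate of the spread, and 0.241 to 0.417 without one of the DBTRG-05MG libraries. With all libraries it ran from 0.0559 with a separate model per line to 0.185 with a pseudocount of 0.1, and it was 0.47 with the replicate block. SPRY4 was 77.9, 62.6, and 52.0 against 83.9, 138.5, and 100.4 CPM (−0.79 ± 0.42, adjusted p = 0.717), and DUSP4 was 130.5, 129.9, and 118.9 against 144.7, 195.3, and 162.9 CPM (−0.46 ± 0.38, adjusted p = 0.915). These 3 genes and SPRED2, which went up (0.24 ± 0.24), had groups that did not overlap on the scaled values, 4 of 9 members where 19.7% of all genes did so. DUSP5, SPRY1, and SPRY2 had values between −0.34 and −0.22, and SPRED1 and ETV5 values of 0.11 and 0.04.

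In U87MG, DUSP4 held 72.2, 68.0, and 74.7 CPM in “WWOX” against 40.7, 29.1, and 44.9 in “Vec”, a 1.81-fold difference (log2FC 0.86 ± 0.38, adjusted p = 0.352). The 3 “WWOX” libraries were close together and above every control. SPRY2 was 55.9, 71.7, and 44.04 against 36.5, 19.3, and 50.8 CPM, with groups that overlapped (0.70 ± 0.33, adjusted p = 0.406), and ETV5 was 217.6, 121.4, and 107.4 against 151.8, 50.7, and 56.7 CPM (0.83 ± 0.51, adjusted p = 0.628). SPRED1 was the other member whose groups did not overlap, at 2.92 to 3.39 CPM in “WWOX” against 4.26 to 6.31 in “Vec” (−0.70 ± 0.36, adjusted p = 0.502), 2 of 9 members where 17.5% of all genes did so. The median over the 9 members was 0.29.

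In T98G the values of the 9 members ran from −0.79 to 0.31, with a median of 0.15. SPRY4 was 4.09, 6.75, and 3.63 CPM in “WWOX” against 7.03, 12.8, and 6.54 in “Vec” (−0.79 ± 0.42, adjusted p = 0.488). On the scaled values it was the 1 member of 9 whose groups did not overlap, with 16.2% among all genes. SPRY2, at 9.86, 10.5, and 10.2 against 12.02, 12.7, and 8.41 CPM (−0.09 ± 0.33), differed by less than the spread between replicates. DUSP5 and SPRED2 were likewise within their SE or close to it, at 0.17 ± 0.49 and 0.28 ± 0.24.

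**Figure D4:**
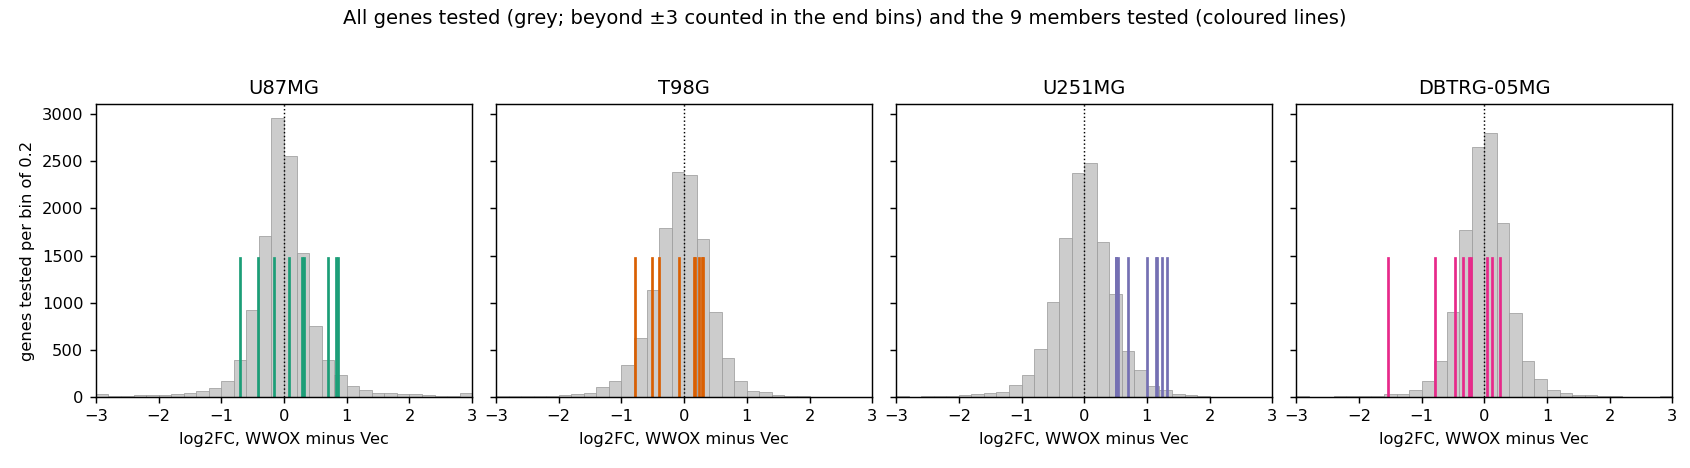
Number of genes tested per bin of 0.2 log2FC (grey, “WWOX” minus “Vec”) in each line, with the values of the 9 members as coloured lines. In U251MG the 9 lines lie to the right of the median of all genes, and in DBTRG-05MG 6 of the 9 lie to the left of 0.

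The mean of the 4 lines was tested against 0. A large difference in a single line can move this mean, so it does not ask whether the lines moved alike. No member passed (1.78% of all genes did), and 0 passed in edgeR, limma-voom, and DESeq2. At an unadjusted p under 0.05 there were 3 members, where 15.4% of all genes were. SPRED2 had the smallest p (0.32 ± 0.12, adjusted p = 0.2), positive in each of the 4 lines, followed by DUSP4 (0.44 ± 0.19, adjusted p = 0.264) and SPRY2 (0.36 ± 0.16, adjusted p = 0.298). SPRED2 passed without U251MG “WWOX” replicate 2 (adjusted p = 0.0252). Whether the “WWOX” difference was unequal between the lines was tested by an F test of limma. It passed for no member (3.50% of all genes), for 6 members at an unadjusted p under 0.05 (14.6% of all genes), and for 0 with edgeR and limma-voom. With DESeq2 SPRY1 passed, where 802 of 12327 genes did. The smallest values were those of SPRY1 (adjusted p = 0.0714, with log2FC of 1.24 in U251MG and −0.22 to −0.51 in the other lines) and SPRY4 (adjusted p = 0.0874, with 1.32 and 0.32 in U251MG and U87MG and −0.79 in both T98G and DBTRG-05MG). SPRY1 passed without T98G “Vec” replicate 2 or without DBTRG-05MG “Vec” replicate 2, ETV4 without U251MG “WWOX” replicate 1, and both ETV4 and SPRY4 without U251MG “Vec” replicate 1.

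The wider pathway was described by 4 lists. Among 14 tested of 15 other genes that ERK induces, 2 were lower in T98G “WWOX” (0.803% of all genes were) and none passed in the other lines. There DESeq2 called 1 in DBTRG-05MG, where it called 129 of 12327 genes. In T98G, edgeR, limma-voom, and DESeq2 each called 2 of the list, and 116, 98, and 273 of all genes. With a separate model per line, 0 of the 12327 genes passed in T98G, so neither of the 2 did. IER3, an immediate early gene with a role in cell survival, was at 88.8, 48.9, and 84.3 CPM in T98G “Vec” and 1.67, 1.19, and 0.396 in “WWOX” (log2FC −5.63 ± 0.56, adjusted p = 2.71e-06). In U87MG it was at 236.0 to 326.8 CPM in both variants (−0.02 ± 0.56), in U251MG and DBTRG-05MG it was at most 5.88 and 0.472 CPM, and its difference between the lines passed the F test (adjusted p = 3.18e-05). PHLDA1, a pleckstrin homology-like domain gene, had 216, 238, and 148 CPM in T98G “WWOX” against 621, 486, and 421 in “Vec” (−1.35 ± 0.32, adjusted p = 0.0392). In DBTRG-05MG it had 418, 437, and 325 against 950, 790, and 877 CPM (−1.22 ± 0.32, adjusted p = 0.08). IER3 and PHLDA1 passed for the mean of the 4 lines too (−1.26 and −0.75, adjusted p = 0.0181 and 0.0129), where 1.78% of all genes did. For this mean edgeR, limma-voom, and DESeq2 each called 1 gene of the list, and 100, 156, and 298 of all genes. The median log2FC of the 14 was −0.55 in T98G, 0.30 in U87MG, 0.51 in U251MG, and −0.19 in DBTRG-05MG.

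Among the 19 genes of the RAS–RAF–MEK–ERK cascade and its adaptors, all tested, 1 was lower in U87MG “WWOX” (1.66% of all genes were). KSR1, a scaffold that holds RAF, MEK, and ERK together, was at 1.42, 1.00, and 1.54 CPM in “Vec” and 0.245, 0.475, and 0.169 in “WWOX” (−1.26 ± 0.32, adjusted p = 0.027). These levels are close to the limit of 3 tags, and limma-voom did not pass it. Its levels in the other lines were 4.11 to 24.7 CPM, with overlapping groups. No gene passed in any line, with 0 calls in limma, edgeR, and limma-voom, among the 8 tested relatives of the members (ETV1, SPRED3, and 6 other DUSP genes, while SPRY3 and DUSP9 did not reach the filter) and the 8 tested RAS GTPase activating proteins and repressors of ETS targets (among them NF1, RASA1, and CIC). DESeq2 called 1 relative in U251MG, where it called 162 of 12327 genes. At an unadjusted p under 0.05 there were 1 relative each in U87MG and U251MG (12.5% of the relatives tested, near the 11.5% of all genes in each line) and none of the other 8.

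The genes with the closest profiles over the 8 groups were named for each member by the root mean square (RMS) difference of the log2 group means, each centred on its own mean. For DUSP4 these were PHLDA2 (0.37) and MAPK11 (0.37), for DUSP5 SGMS2 (0.15) and GPR180 (0.17), for SPRY1 NUAK1 (0.34) and SH3TC2 (0.35), and for SPRY2 MAN2A1 (0.27) and SVIP (0.28). For SPRY4 they were LONRF2 (0.33) and FEZF1 (0.37), for SPRED1 UBR7 (0.19) and TTC32 (0.20), for SPRED2 ATP2B1 (0.17) and NDUFA5 (0.19), for ETV4 ATOX1 (0.26) and ZBTB38 (0.29), and for ETV5 STX3 (0.11) and ZNF800 (0.13). No member was among the closest genes of another. Within the set, DUSP5 and SPRED2 were closest (0.32), then DUSP5 and SPRED1 (0.41) and SPRY2 and SPRY4 (0.47). SPRY1 was nearest to DUSP4 (1.12) and farthest from SPRY2 (1.64).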

How the data were processed

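CAGE-Seq libraries were analyzed in 8 groups of 3, from the “Vec” and “WWOX” variants of 4 lines. Per the labels and the methods of the study, the authors aligned 75 nt reads to hg38 with STAR, processed them with SAMtools, counted tags per gene, and deposited the counts scaled to 1000000 per library (CPM). The version of STAR and the gene annotation are not given in the sources used here. All deposited values were whole multiples of 1 tag (100.0% within 0.01 of a tag), so tags were recovered, and the 24 single-library tables equal the common table. Columns of samples not used numbered 0. Symbols were matched for 43033 of 43037 genes, and positions are from GENCODE 44.

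Scaling factors came from the trimmed mean of M-values (30% of M and 5% of A trimmed), 0.5 was added to the scaled CPM before log2, and the 12327 genes reaching 5 CPM in 1 library or more entered 1 limma model (trend) of 8 groups with 16 residual degrees of freedom. Values of p were two-sided and adjusted by the Benjamini-Hochberg method over all genes tested (threshold 0.05). An F test compared the 4 lines. The procedure was tested on simulated data. The members, lists, and tests were chosen with earlier results of these data known. Genes named were the 10 members, the genes of each list past the threshold in a line with groups that did not overlap (up to 5 per list), the 2 nearest profiles per member, and WWOX. CDH5, a marker, was named after its values were seen.

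Alternatives were a pseudocount of 0.1 or 1, no filter, CPM as deposited, median of ratios scaling, the count tests DESeq2, limma-voom, and edgeR quasi-likelihood on recovered tags, replicate number as a block, a separate model per line, and leaving out each of the 24 libraries. Replicates were biological per the labels. Versions were DESeq2 1.42.0, edgeR 4.0.16, and limma 3.58.1 in R 4.3.3, and pandas 2.3.3 in Python 3.11.15.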

Additional observations from a re-analysis of the deposited data

Results flagged for a closer look

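The log2FC of DUSP4 was in opposite directions in U87MG and DBTRG-05MG, with every “WWOX” library above every “Vec” library in U87MG (0.86) and every one below in DBTRG-05MG (−0.46). The log2FC of U87MG exceeded that of DBTRG-05MG by 1.32. The difference between this pair of lines was not tested on its own. The F test over the 4 lines gave an unadjusted p of 0.0313 and an adjusted p of 0.271 for DUSP4.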

How the results depend on the processing

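The number of members that passed the test between “WWOX” and “Vec” was 0 in U87MG and T98G under every alternative run. In U251MG it was 2 with DESeq2 and 0 to 3 with a library left out. In DBTRG-05MG and for the mean of the 4 lines it was 0 to 1 with a library left out, and for the difference between the lines it was 1 with DESeq2 and 0 to 2 with a library left out. Between “Vec” groups, the count for U87MG against U251MG was 5 and became 3 with no filter or with edgeR, and 2 to 5 with a library left out. That for T98G against U251MG was 3 and became 6 with DESeq2. Replicate numbers were shared across groups. Same-numbered “Vec” and “WWOX” libraries had deviations with r from −0.55 to 0.51 (over 0.1 in 4 of 12 pairs). Of the 12 “Vec” libraries 3 correlated best with their own number, U87MG replicate 1 and T98G replicates 1 and 2. Deviations from a mean of 3 libraries depend on each other, so these values cannot decide whether same-numbered libraries were paired. With the replicate block 0 members passed in each line, for the mean, and for the difference.

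None of the values that changed sign had passed the test. With all libraries kept they were, for the mean of the 4 lines, SPRY1 (−0.012 with edgeR and −0.00555 with DESeq2), SPRY4 (−0.080 and −0.065), and SPRED1 (−0.015 with a pseudocount of 1), and for ETV5 U87MG against T98G (−0.0042 with CPM as deposited) and U251MG against DBTRG-05MG (0.024 with edgeR and 0.016 with DESeq2). With a library left out, the mean of the 4 lines ran from −0.031 to 0.31 for DUSP5, −0.055 to 0.085 for SPRY1, −0.12 to 0.19 for SPRY4, and −0.11 to 0.066 for SPRED1. In T98G it ran from −0.14 to 0.44 for DUSP4 and −0.023 to 0.29 for DUSP5, in U87MG from −0.070 to 0.15 for SPRED2, and in U251MG from −0.32 to 1.01 for DUSP5, −0.094 to 1.15 for ETV4, and −0.32 to 0.96 for ETV5. In DBTRG-05MG it ran from −0.52 to 0.017 for SPRY1, −0.12 to 0.32 for SPRED1, and −0.15 to 0.30 for ETV5. Between “Vec” groups (first line minus second) the ranges were −0.56 to 0.0043 for DUSP4 and −0.63 to 0.028 for SPRED1 in T98G against DBTRG-05MG, −0.56 to 0.37 for DUSP5 and −1.09 to 0.19 for ETV5 in T98G against U251MG, and −0.66 to 0.56 for SPRY4 and −1.08 to 0.19 for ETV5 in U87MG against U251MG. For ETV5 they were also −0.48 to 0.30 in U87MG against T98G and −0.72 to 0.55 in U251MG against DBTRG-05MG. The cause was not tested.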
